A study of Mus musculus with 11 samples.

Results

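Amino acid transporter genes were followed in mouse lung mesenchyme after either pneumonectomy (PNX, in which part of the lung is removed) or a sham operation. The genes were taken by symbol from 7 solute carrier families: Slc1, Slc3, Slc6, Slc7, Slc36, Slc38 and Slc43. In all, 59 of 24411 symbols matched, and the 53 that reached a CPM (counts scaled to a fixed library total) of 1 or more in at least 3 of the 11 libraries make up the set described here. Cells of C57BL6 lungs had been sorted for absence of EpCAM, CD45 and CD31, which mark epithelial, blood and endothelial cells. The groups were PNX at day 7 with 3 libraries, sham at day 7 with 3, PNX at day 14 with 3 and sham at day 14 with 2, and every group comes from operated animals, so none shows a lung without surgery. No age is given for the mice. No label says that the replicates were separate animals, and p-values therefore rest on the library-to-library spread, part of which may be technical.

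Cells take up amino acids for protein synthesis, for energy, and for making glutathione, nucleotides and signalling molecules. The Slc1 carriers move glutamate or small neutral amino acids, and the Slc38 carriers move glutamine and other neutral amino acids with sodium. Most Slc7 proteins are light chains that reach the cell surface only when bound to a heavy chain of the Slc3 family, and the others carry arginine and lysine on their own. Slc36 proteins move small amino acids with protons and Slc43 proteins move large neutral ones without an ion. The Slc6 family also holds carriers for taurine, creatine, glycine, serotonin and noradrenaline. Fibroblasts use glycine and proline in large amounts to build collagen, and shortage of amino acids raises many transporter genes through the transcription factor ATF4.

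Of the reported genes, 1 passed the test for surgery over both days. Slc7a10, which encodes Asc-1, a light chain for small neutral amino acids such as alanine, serine, cysteine and glycine, was lower after PNX than after sham in the mean of both days, and neither day passed alone. Slc1a5 (ASCT2, the main glutamine exchanger of many growing cells) and Slc36a2 (PAT2, a proton-coupled carrier of glycine, alanine and proline) had PNX values below every sham value at day 7 but did not pass. Slc6a4, the serotonin transporter, was the one reported gene whose PNX values lay above every sham value at both days, and it did not pass either. The heavy chain Slc3a2, partner of Slc7a10, stood at similar levels in the groups, with differences smaller than their errors.

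The promoters below belong to Slc7a10, to Slc6a4 and to Slc7a11, the cystine carrier whose promoter holds the ATF4 sequence. They are the 250 bases before the RefSeq start of each gene (GRCm38.p6), 5′ to 3′ on the gene's strand. Capitals mark the GC box GGGCGG, searched on both strands, in the first pair and the ATF4 response core TGATGNAA, searched on both strands, in Slc7a11.
Slc7a10, chr7:35186135-35186384, plus strand: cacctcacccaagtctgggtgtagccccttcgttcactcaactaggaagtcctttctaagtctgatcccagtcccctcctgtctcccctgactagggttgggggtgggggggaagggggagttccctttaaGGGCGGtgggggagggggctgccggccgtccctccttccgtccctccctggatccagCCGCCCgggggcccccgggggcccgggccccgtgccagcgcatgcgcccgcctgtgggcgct
Slc6a4, chr11:76998347-76998596, plus strand: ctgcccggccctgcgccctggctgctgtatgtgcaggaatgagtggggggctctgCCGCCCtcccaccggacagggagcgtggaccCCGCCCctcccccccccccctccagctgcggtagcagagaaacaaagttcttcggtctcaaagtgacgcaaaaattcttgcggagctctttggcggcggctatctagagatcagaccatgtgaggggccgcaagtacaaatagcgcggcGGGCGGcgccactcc
Slc7a11, chr3:50443614-50443863, minus strand: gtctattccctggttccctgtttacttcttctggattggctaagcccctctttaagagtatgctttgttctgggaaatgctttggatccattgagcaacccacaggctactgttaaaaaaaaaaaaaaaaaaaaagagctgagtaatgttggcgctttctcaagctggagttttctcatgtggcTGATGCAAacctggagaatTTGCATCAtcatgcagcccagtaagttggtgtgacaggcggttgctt
Promoters were found for 41 of the 59 genes, 62 promoters in all. The GC box occurred in 30 of these 62, and in 32.7% of the 32851 promoters of the whole table at the same length. TGATGNAA occurred in 3 of the 62, which belong to Slc7a11 and Slc7a7, and in 3.45% of all promoters. No window shown held both motifs. The Slc7a10 window held 2 GC boxes, at 119 and 62 bases before the start, and 14 CpG dinucleotides. In the Slc6a4 window there were 3 GC boxes and 18 CpG dinucleotides. The Slc7a11 window held 2 matches to TGATGNAA, on opposite strands at 66 and 47 bases before the start, and 2 CpG dinucleotides.

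The libraries held 2539628 to 9008592 counts. Sham day 14 replicate 1 was the shallowest and had 1584 CPM on 1436 receptor genes of the olfactory and vomeronasal systems, a measure of background; the other libraries had 89.0 to 1180 CPM there. After it came PNX day 7 replicate 2 and sham day 7 replicate 2. Stromal markers were present throughout, with 4389 to 11994 CPM of Dcn (share of total counts). Genes of the proteins used for the sort were not absent. Epcam had 0.478 to 15.8 CPM, Ptprc, the gene of CD45, 6.41 to 46.5 CPM, and Pecam1, the gene of CD31, 9.69 to 268.6 CPM. Longer marker lists of the cells the sort should remove reached higher sums. The sums were 161 to 2416 CPM for 12 blood markers, 85.8 to 1055 CPM for 8 endothelial markers and 144 to 15396 CPM for 9 epithelial markers. Cd74 of the blood list alone had 70.8 to 1596 CPM. Sftpc, a secretory product of alveolar epithelium, ranged from 19.4 to 13395 CPM. Lowly counted transporter genes followed the background: of the 22 reported genes that averaged under 5 CPM, 17 were highest in one of the 3 libraries named, against 5 of the other 31. Their part in the results was not tested.

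**Figure D1:**
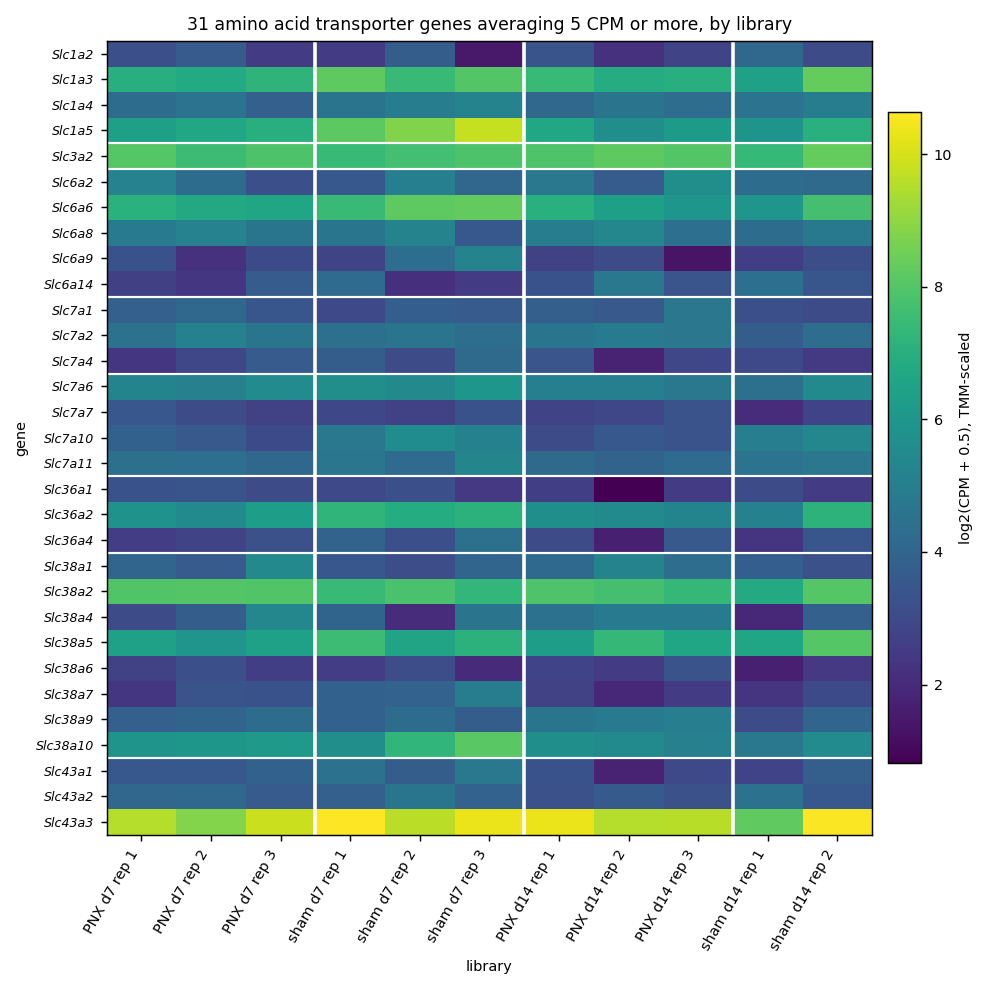
Levels of the 31 reported genes that averaged 5 CPM or more (down the page, in order of family and role) in the 11 libraries (across), as log2(CPM + 0.5) of TMM-scaled counts; white lines part role groups and sample groups. Slc43a3, Slc3a2, Slc1a5, Slc38a2, Slc1a3, Slc6a6 and Slc38a5 form the bright rows in nearly every library, and sham day 14 replicate 1 differs from its partner in many rows.

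The genes differed widely in level. From here CPM is scaled by the trimmed mean of M-values (TMM), a factor that makes libraries of different make-up comparable. In CPM per kilobase of exon, averaged over the 4 groups, Slc43a3 led with 212; despite its family it is known as a carrier of purine nucleobases. Next came Slc3a2 with 66.8, Slc38a5 (SNAT5, glutamine and glycine) with 56.9, Slc1a5 with 48.6, Slc36a2 with 25.3, Slc38a2 (SNAT2) with 23.6, Slc1a3 (GLAST, glutamate) with 21.0 and Slc6a6 (taurine) with 17.7. Slc38a10 and Slc7a10 followed with 11.9 and 11.03 CPM per kilobase. In every library 34 of the 59 genes reached 1 CPM of total counts. At the edge of the rule, which used CPM of total counts, Slc6a5, Slc7a13 and Slc7a15 reached 1 CPM in 3 libraries, while Slc6a19, Slc7a9 and Slc38a8 did so in 2, Slc7a12 in 1, and Slc36a3 and Slc38a11 in none. The highest value of these 6 excluded genes in any library was 2.36 CPM of total counts.

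Summed over the 53 genes, the level was 2187, 1794 and 2406 CPM in PNX libraries at day 7, against 3465, 2939 and 4188 CPM in sham libraries. At day 14 it was 2753, 2126 and 2013 CPM in PNX libraries, against 1325 and 3603 CPM in sham libraries. All PNX sums lay below all sham sums at day 7, and the groups overlapped at day 14. Slc43a3 made up 22.8% to 47.5% of these sums. Without it the sums were 1441, 1341 and 1489 CPM in PNX libraries at day 7, against 1873, 2154 and 2896 CPM in sham libraries. In bulk libraries, fewer cells of a type that expresses a gene and less RNA of that gene per cell cannot be told apart.

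Genes were tested in 1 fit of all 11 libraries with edgeR's quasi-likelihood test, adjusted by Benjamini-Hochberg over 16011 genes, and called at an adjusted p under 0.05. Of the 53 reported genes 47 had counts enough to be tested. Slc1a6, Slc6a3, Slc6a13, Slc7a3, Slc7a13 and Slc7a15 did not. At day 7 none of the 47 was called, and of all genes 0.0375% were. At an unadjusted p under 0.05, 9 of the 47 (19.1%) were lower after PNX, where 8.07% of all genes were, and 2 (4.26%) were higher, where 4.66% were. At day 14 again none was called, with 0.00625% of all genes called, and 4 genes (8.51%) had an unadjusted p under 0.05 in each direction, where 3.63% of all genes were lower and 3.19% higher. Over the mean of both days 1 of 47 was called, Slc7a10, where 0.194% of all genes were called in either direction and 0.0562% as lower. At an unadjusted p under 0.05, 9 (19.1%) were lower over both days, where 6.37% of all genes were, and 5 (10.6%) higher, where 3.92% were. The median log2 fold change of the 47 was 0.08 at day 7, beside 0.03 for all genes, and -0.31 at day 14, beside -0.07. Fitted values lay below 0 for 46.8% of the 47 at day 7, for 61.7% at day 14 and for 61.7% over both days, where they did so for 48.3%, 54.8% and 53.4% of all genes.

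**Figure D2:**
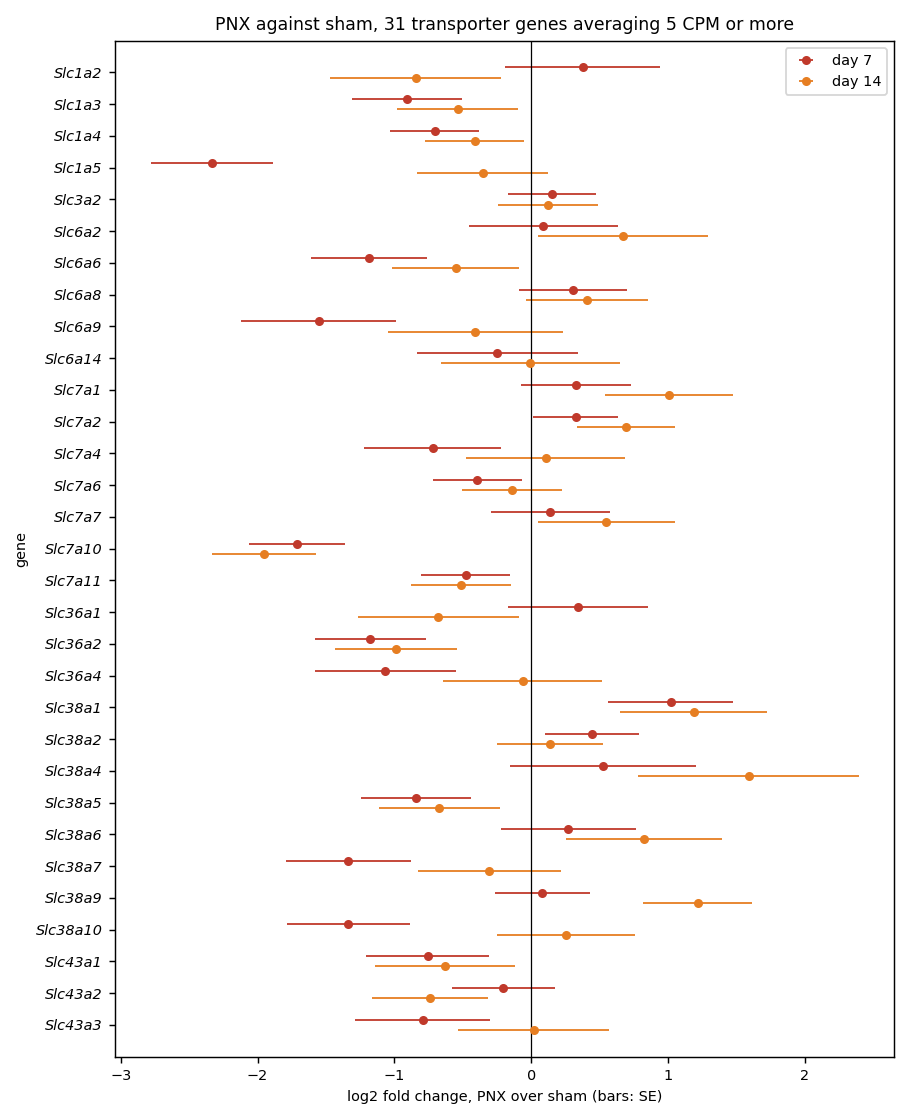
Log2 fold change of PNX over sham (horizontal axis, bars show the SE) at day 7 and day 14 for the 31 reported genes that averaged 5 CPM or more. Slc7a10 lies at about the same place left of 0 at both days, Slc1a5 lies far left at day 7 alone, and Slc6a4 is not drawn because it averaged under 5 CPM.

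Slc7a10 (chromosome 7, 35186385 to 35201114, plus strand, mm10) had 14.1, 11.4 and 7.58 CPM in the PNX libraries, against 26.0, 47.5 and 34.9 CPM in the sham libraries at day 7. At day 14 it had 8.02, 10.8 and 9.44 CPM in the PNX libraries, against 32.2 and 40.9 CPM in the sham libraries. No PNX library reached the level of any sham library on either day. The means were 11.01 ± 3.28 CPM after PNX and 36.1 ± 10.8 CPM after sham at day 7 (SD, n = 3 each), and 9.43 ± 1.40 CPM after PNX (n = 3) and 36.6 ± 6.09 CPM after sham (n = 2) at day 14. The log2 fold change, with its SE, was -1.72 ± 0.35 at day 7 (edgeR adjusted p = 0.0702) and -1.95 ± 0.38 at day 14 (edgeR adjusted p = 0.0734). Over both days Slc7a10 fell by 1.83 ± 0.26 on the log2 scale, to 0.28 times the sham level (edgeR adjusted p = 0.00546), with PNX below sham in every library of both days. The effect at day 14 minus that at day 7 was -0.24 ± 0.51 (edgeR adjusted p = 0.883). The decrease was called under all 21 other settings tried, with log2 fold changes of -1.95 to -1.64 and adjusted p of 2.26e-07 to 0.0445.

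Other measurements stand beside that decrease. Slc7a10 overlaps Lrp3 on the opposite strand, and since the strand setting of the counting is not given, reads of the pair cannot be told apart with certainty; Lrp3 had 9.01, 9.41 and 8.61 CPM in PNX libraries at day 7, against 8.996, 12.7 and 11.2 CPM in sham libraries, and 8.95, 7.22 and 4.72 CPM in PNX libraries at day 14, against 13.8 and 9.27 CPM in sham libraries. The summed level of 10 alveolar fibroblast markers also differed: it was 3571, 3222 and 3881 CPM in PNX libraries at day 7, against 7389, 6004 and 5402 CPM in sham libraries, and 4358, 6321 and 3558 CPM in PNX libraries at day 14, against 6592 and 9941 CPM in sham libraries. PNX sums lay below all sham sums on both days, and none of these markers was at 0 in any library. As shares of total counts at day 7, Tcf21, Npnt, Itga8 and Fgfr4 were lower in every PNX library than in any sham library. The other markers of the list overlapped at day 7. As the same shares at day 14, Tcf21, Npnt, Ces1d, Wnt2, Fgfr4 and Inmt were lower in every PNX library than in either sham library. The rest of the list overlapped there. Over all genes, in TMM-scaled CPM, 9.57% were lower in this way at day 7 and 8.28% at day 14. Inmt was the highest marker of the list in every library, with 1150 to 5128 CPM of total counts. Per 1000 counts of these markers, Slc7a10 had 3.95, 3.52 and 1.95 counts in PNX libraries at day 7, against 3.52, 7.91 and 6.47 in sham libraries, and the groups overlapped. At day 14 it had 1.84, 1.71 and 2.65 in PNX libraries, against 4.89 and 4.11 in sham libraries, which did not overlap. The part of alveolar fibroblast content in the result was not tested.

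**Figure D3:**
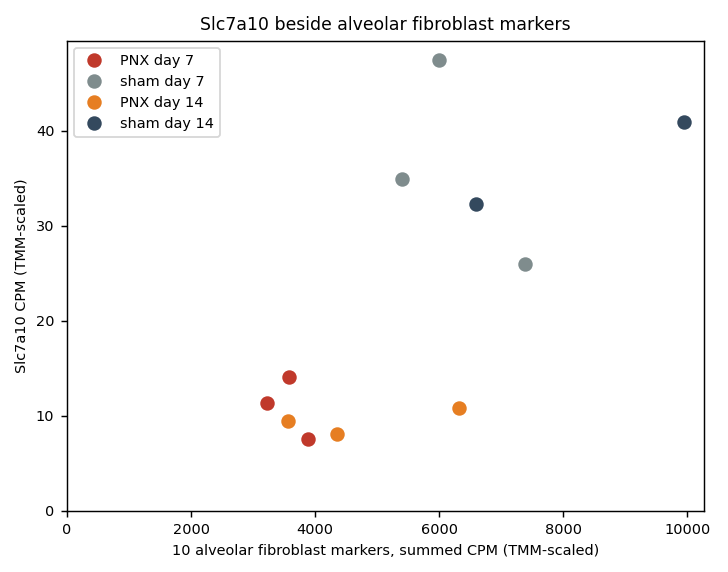
Slc7a10 level (vertical axis, TMM-scaled CPM) against the summed level of 10 alveolar fibroblast markers (horizontal axis, TMM-scaled CPM); each point is a library, coloured by group. PNX libraries lie at 7.58 to 14.1 CPM of Slc7a10 and sham libraries at 26.0 to 47.5 CPM, and PNX day 14 replicate 2 has a marker sum within the range of the sham libraries.

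Asc-1 and PAT2 are known as surface proteins of mouse adipocytes, so adipocyte genes were looked at, after the transporter values were known. Adipoq, Plin1, Cidec, Lep, Cfd, Retn and Ucp1 summed to 63.7, 63.96 and 119.1 CPM in PNX libraries at day 7, against 15.3, 9.45 and 6.38 CPM in sham libraries. At day 14 they summed to 10.3, 3.45 and 24.5 CPM in PNX libraries, against 38.3 and 13.9 CPM in sham libraries. The PNX sums of day 7 lay above every sham sum, while those of day 14 overlapped, and Cfd gave 51.5, 42.9 and 101.4 CPM of the PNX sums at day 7. Adipoq, Cidec, Cfd and Retn were higher in every PNX library than in any sham library at day 7, and Plin1, Lep and Ucp1 overlapped. P2rx5, looked at with them but left out of the sum, went the other way at day 7. It had 0.680, 1.66 and 1.03 CPM in PNX libraries, against 1.97, 3.01 and 3.04 CPM in sham libraries. P2rx5 at day 14 had 1.87, 2.82 and 2.70 CPM in PNX libraries, against 0.336 and 1.46 CPM in sham libraries. The part of adipocytes in the results was not tested.

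Neither the heavy chains nor the other light chains gave a call. Slc3a2 (4F2hc, chromosome 19, 8706882 to 8723369, minus strand) had 265, 188 and 238 CPM in the PNX libraries, against 176, 208 and 239 CPM in the sham libraries at day 7, and 241, 293 and 258 CPM in the PNX libraries, against 168 and 316 CPM in the sham libraries at day 14. The groups overlapped at both days and the log2 fold change was 0.15 ± 0.32 at day 7 and 0.12 ± 0.36 at day 14, the second turning to -0.03 with total counts in place of TMM scaling. Slc3a1 (rBAT, the heavy chain of kidney and gut) averaged under 5 CPM. Slc7a5 (LAT1, large neutral amino acids such as leucine) had 5.10, 8.58 and 1.80 CPM in the PNX libraries, against 2.95, 4.72 and 2.32 CPM in the sham libraries at day 7, and 2.24, 2.04 and 3.596 CPM in the PNX libraries, against 4.37 and 2.07 CPM in the sham libraries at day 14. Slc7a8 (LAT2, neutral amino acids) had 1.87, 3.05 and 6.81 CPM in the PNX libraries, against 1.41, 1.72 and 8.12 CPM in the sham libraries at day 7, and 3.17, 5.02 and 4.50 CPM in the PNX libraries, against 5.71 and 1.22 CPM in the sham libraries at day 14. Both overlapped between groups on each day, and the sign of the difference changed with the settings for Slc7a5 at day 14 and for Slc7a8 at both days. Slc7a11 (xCT, cystine in exchange for glutamate, chromosome 3, 49892526 to 50443614, minus strand) had 21.1, 20.5 and 17.1 CPM in the PNX libraries, against 25.0, 18.5 and 37.99 CPM in the sham libraries at day 7, and 18.1, 14.8 and 18.4 CPM in the PNX libraries, against 22.8 and 25.9 CPM in the sham libraries at day 14. Its groups were apart at day 14, with a log2 fold change of -0.51 ± 0.36 (edgeR adjusted p = 0.811). Slc7a6 and Slc7a7 (y+LAT2 and y+LAT1, which exchange cationic for neutral amino acids) had log2 fold changes of -0.39 ± 0.32 and 0.14 ± 0.43 at day 7. Of the 6 light chains tested 3 had a fitted value below 0 and 3 above 0 over both days, where 53.4% of all genes lay below 0.

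Slc1a5 (chromosome 7, 16781340 to 16798274, plus strand) had 84.6, 104 and 129 CPM in the PNX libraries, against 284, 436 and 882 CPM in the sham libraries at day 7, and 104, 50.5 and 70.8 CPM in the PNX libraries, against 59.5 and 132 CPM in the sham libraries at day 14. The sham libraries of day 7 stood above all 8 others, at levels that themselves differed widely. At day 7 the log2 fold change was -2.33 ± 0.45 (edgeR adjusted p = 0.0606) and at day 14 -0.36 ± 0.48 (edgeR adjusted p = 0.892); the difference between the days was 1.98 ± 0.66 (edgeR adjusted p = 0.379). Day 14 against day 7 gave -2.47 ± 0.53 after sham (edgeR adjusted p = 0.0975) and -0.50 ± 0.43 after PNX (edgeR adjusted p = 0.786). Without sham day 14 replicate 1, the log2 fold change of Slc1a5 was -2.34 ± 0.40 at day 7 and -1.59 ± 0.31 over both days. That fit leaves 1 sham library at day 14, assumed to vary like the other groups. With all libraries, limma voom gave -2.44 ± 0.35 at day 7 (adjusted p = 0.00607) and -1.33 ± 0.33 over both days (adjusted p = 0.267). DESeq2 gave -2.32 ± 0.42 at day 7 (adjusted p = 3.48e-05) and -1.35 ± 0.32 over both days (adjusted p = 0.00329).

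Markers of adventitial fibroblasts, another cell type that the sort keeps, lay in both directions at day 7. Of 8 such markers, 3 had PNX values below all sham values (Pi16, Col14a1 and Clec3b), 2 above (Ly6a and Ly6c1) and 3 overlapped. Over all genes, in TMM-scaled CPM, 9.57% lay below in this way and 9.95% above. In CPM of total counts at day 7, Pi16 had 867, 1081 and 1148 after PNX, against 2595, 2968 and 7067 after sham. Its highest value was in sham replicate 3, as for Slc1a5, where Ly6a and Ly6c1 had their lowest values, at 176 and 59.6. The summed level of the 8 markers was 8478, 7249.8 and 14515 CPM in PNX libraries at day 7, against 20163, 9079 and 25578 CPM in sham libraries, and 19169.7, 16524 and 14373 CPM in PNX libraries at day 14, against 8742 and 13208 CPM in sham libraries. The sums overlapped at day 7, were higher in every PNX library than in either sham library at day 14, and no marker was at 0 in any library. The part of adventitial fibroblast content in the results was not tested.

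Another pair of Slc1 genes had PNX values below all sham values at day 7. Slc1a3 (chromosome 15, 8634124 to 8710764, minus strand) had 129.9, 114 and 147 CPM in the PNX libraries, against 297, 177 and 258 CPM in the sham libraries at day 7, and the groups did not overlap (log2 fold change -0.91 ± 0.40, edgeR adjusted p = 0.357). At day 14 it had 176, 117 and 127 CPM in the PNX libraries, against 86.0 and 319 CPM in the sham libraries, with PNX inside the span of the sham pair. Slc1a4 (ASCT1, alanine, serine and cysteine) averaged 18.5 ± 4.77 CPM after PNX and 30.0 ± 6.25 CPM after sham at day 7 (SD, n = 3 each), also without overlap (log2 fold change -0.70 ± 0.33, edgeR adjusted p = 0.377). The glutamate carriers Slc1a1, Slc1a2 and Slc1a7 overlapped at both days. Over both days all 6 tested Slc1 genes had a fitted value below 0, where 53.4% of all genes did, 3 with an unadjusted p under 0.05, where 6.37% of all genes were lower, and none called.

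**Figure D4:**
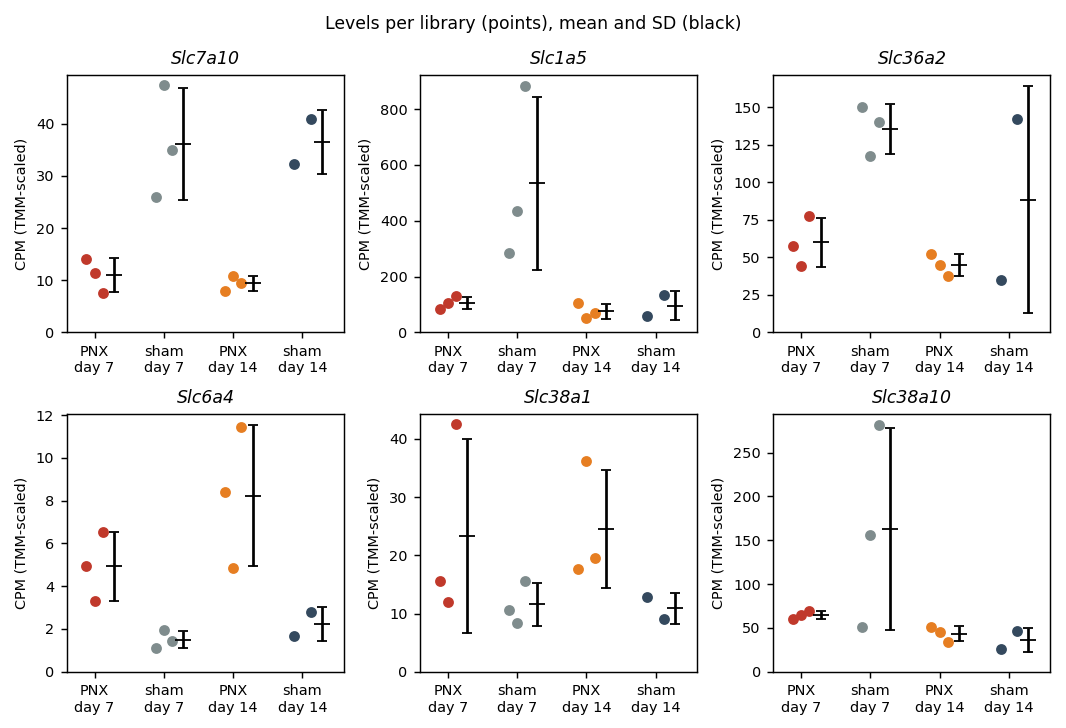
CPM (TMM-scaled, vertical axes starting at 0) of 6 genes in each library (points) by group, with the mean and SD in black. Slc7a10 is lower after PNX on both days. Slc1a5 is high in all sham libraries of day 7, and Slc38a10 in sham day 7 replicates 2 and 3 but not in replicate 1. Slc36a2 has 1 low sham library at day 14, and Slc6a4 and Slc38a1 are higher after PNX on average at both days.

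Slc36a2 (chromosome 11, 55158470 to 55185077, minus strand) had 57.8, 44.6 and 77.5 CPM in the PNX libraries, against 150.0, 117 and 139.9 CPM in the sham libraries at day 7, without overlap, and 52.0, 45.0 and 37.5 CPM in the PNX libraries, against 34.9 and 142 CPM in the sham libraries at day 14. The sham pair of day 14 stood on either side of the PNX libraries, the low value being that of sham day 14 replicate 1. Its log2 fold change was -1.18 ± 0.41 at day 7 (edgeR adjusted p = 0.213), -0.99 ± 0.44 at day 14 (edgeR adjusted p = 0.706) and -1.08 ± 0.30 over both days (edgeR adjusted p = 0.155). Without that library it was -1.43 ± 0.24 over both days, in a fit where the 1 sham library left at day 14 is assumed to vary like the other groups. Over the settings tried it ranged from -1.672 to 0.505 at day 14. Over both days limma voom gave -0.99 ± 0.29 (adjusted p = 0.392) and DESeq2 -1.09 ± 0.31 (adjusted p = 0.0285). Slc36a1, nearby on the same chromosome (PAT1, at 55204350 to 55236330 on the plus strand, known to act at the lysosome), had 9.18, 9.69 and 7.97 CPM in the PNX libraries, against 7.45, 8.81 and 4.93 CPM in the sham libraries at day 7, and 5.78, 1.26 and 5.17 CPM in the PNX libraries, against 7.73 and 5.37 CPM in the sham libraries at day 14, with overlap between surgeries at both. Day 14 against day 7 after PNX gave a log2 fold change of -1.14 ± 0.53 (edgeR adjusted p = 0.727), and between surgeries it was 0.34 ± 0.51 at day 7. Slc36a4 averaged 7.13 ± 1.81 CPM after PNX and 14.96 ± 6.26 CPM after sham at day 7 (SD, n = 3 each), with overlap.

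Fitted values of the Slc38 genes lay on both sides of 0. Slc38a1 (SNAT1), Slc38a2 (SNAT2) and Slc38a4 (SNAT4) lie on chromosome 15 between 96571418 and 97055956, all on the minus strand. Slc38a1 had 15.6, 11.9 and 42.5 CPM in the PNX libraries, against 10.7, 8.38 and 15.7 CPM in the sham libraries at day 7, and 17.7, 36.3 and 19.6 CPM in the PNX libraries, against 12.8 and 9.03 CPM in the sham libraries at day 14. The groups overlapped at day 7 and were apart at day 14, with log2 fold changes of 1.02 ± 0.46 and 1.19 ± 0.54; over both days it was 1.10 ± 0.35 (edgeR adjusted p = 0.236). The PNX values of Slc38a2, the gene of a carrier known to be induced by amino acid shortage, lay above all sham values at day 7, with means of 253 ± 4.85 CPM after PNX and 186 ± 36.4 CPM after sham (SD, n = 3 each; log2 fold change 0.44 ± 0.34, edgeR adjusted p = 0.671). For Slc38a4 they did so at day 14, with 22.4, 29.0 and 29.7 CPM in the PNX libraries, against 3.36 and 13.8 CPM in the sham libraries (log2 fold change 1.59 ± 0.81, edgeR adjusted p = 0.747). At day 7 Slc38a4 had 8.16, 12.5 and 40.7 CPM in the PNX libraries, against 15.2, 3.65 and 23.9 CPM in the sham libraries, with overlap.

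Slc38a9, the lysosomal arginine sensor that acts on mTORC1, had 24.4, 29.2 and 31.5 CPM in the PNX libraries, against 8.06 and 15.9 CPM in the sham libraries at day 14 (chromosome 13, 112660751 to 112738749, plus strand), without overlap. It had 13.8, 15.2 and 19.0 CPM in the PNX libraries, against 14.2, 18.9 and 12.5 CPM in the sham libraries at day 7, where the groups overlapped. The log2 fold change was 1.22 ± 0.40 at day 14 (edgeR adjusted p = 0.492) and 0.08 ± 0.34 at day 7, and the difference between them was 1.13 ± 0.52 (edgeR adjusted p = 0.562). After PNX day 14 against day 7 gave 0.82 ± 0.34 (edgeR adjusted p = 0.724).

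Slc38a7 (SNAT7, lysosomal glutamine and asparagine; chromosome 8, 95835920 to 95853539, minus strand) and Slc38a10 (chromosome 11, 120103960 to 120151346, minus strand) had PNX means below the sham means at day 7. Slc38a7 had 4.59, 9.69 and 9.38 CPM in the PNX libraries, against 14.1, 14.6 and 30.9 CPM in the sham libraries, without overlap (log2 fold change -1.34 ± 0.46, edgeR adjusted p = 0.208). At day 14 Slc38a7 had 6.16, 3.30 and 5.39 CPM in the PNX libraries, against 4.37 and 7.56 CPM in the sham libraries, with overlap. At day 7 Slc38a10 had 59.7, 64.2 and 69.4 CPM in the PNX libraries, against 50.7, 156 and 281 CPM in the sham libraries, where sham replicate 1 lay below all 3 PNX libraries (log2 fold change -1.34 ± 0.45, edgeR adjusted p = 0.202). At day 14 Slc38a10 had 51.1, 45.5 and 33.9 CPM in the PNX libraries, against 26.2 and 46.2 CPM in the sham libraries, and day 14 against day 7 after sham gave -2.16 ± 0.54 (edgeR adjusted p = 0.106). Slc38a5 averaged 78.5 ± 14.7 CPM after PNX and 141 ± 46.3 CPM after sham at day 7 (SD, n = 3 each), without overlap (log2 fold change -0.84 ± 0.40, edgeR adjusted p = 0.398).

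The transcripts of the 18 reported genes whose highest group mean was that of sham at day 7 held 40.7% (Slc7a11) to 57.6% (Slc38a10) G and C, with a median of 52.6%, beside 51.7% for all 53 reported genes; Slc1a5 stood at 56.7%. The libraries differed in how level followed GC content, with rank correlations across genes of 0.139, 0.3 and -0.171 in PNX at day 7, -0.117, 0.5 and 0.286 in sham at day 7, -0.306, -0.346 and -0.367 in PNX at day 14 and 0.0672 and -0.385 in sham at day 14. With an offset for GC content, a setting chosen after seeing the data, the day 7 log2 fold change was -1.94 ± 0.38 for Slc1a5 (edgeR adjusted p = 0.0647) and -0.87 ± 0.37 for Slc38a10 (edgeR adjusted p = 0.336), while Slc7a10, at 57.0% GC, was still called over both days, at -1.64 ± 0.23 (edgeR adjusted p = 0.00479).

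Slc6a4 (chromosome 11, 76998603 to 77032340, plus strand) had 4.93, 3.32 and 6.55 CPM in the PNX libraries, against 1.12, 1.93 and 1.45 CPM in the sham libraries at day 7, and 8.39, 4.86 and 11.5 CPM in the PNX libraries, against 1.68 and 2.81 CPM in the sham libraries at day 14, with 274 counts in all libraries together. Every PNX library was above every sham library of its day. An antisense gene, Gm12343, overlaps Slc6a4, and B4galt2 overlaps Slc6a9 on the opposite strand, so their reads too cannot be assigned with certainty. The same holds for other reported genes with an opposite-strand overlap, among them Slc7a7 (Oxa1l), Slc7a5 (Gm20388), Slc7a4 (P2rx6), Slc3a1 (Prepl), Slc7a11 (Gm37854) and Slc38a9 (Gm47827). The log2 fold change of Slc6a4 was 1.73 ± 0.59 at day 7 (edgeR adjusted p = 0.206) and 1.82 ± 0.67 at day 14 (edgeR adjusted p = 0.594). Over both days it was 1.78 ± 0.45 (edgeR adjusted p = 0.102). DESeq2 called Slc6a4 over both days at 1.78 ± 0.46 (adjusted p = 0.0136). There limma voom gave 1.75 ± 0.56 (adjusted p = 0.418) and the GC offset 1.82 ± 0.44 (edgeR adjusted p = 0.096), neither called. Groups apart at both days in this direction were found for 1 of 47 transporter genes (2.13%) and 1.12% of all genes, and in the other direction for 1 of 47, Slc7a10, and 1.11%.

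Slc6a6, the taurine carrier, had 135, 106 and 98.0 CPM in the PNX libraries, against 170.2, 291 and 310.0 CPM in the sham libraries at day 7, without overlap (log2 fold change -1.19 ± 0.42, edgeR adjusted p = 0.227), and 132, 84.6 and 62.9 CPM in the PNX libraries, against 60.8 and 212 CPM in the sham libraries at day 14. Slc6a9 (GlyT1, glycine) had 9.35, 4.15 and 7.58 CPM in the PNX libraries, against 6.61, 20.2 and 35.96 CPM in the sham libraries at day 7, with overlap (log2 fold change -1.56 ± 0.57, edgeR adjusted p = 0.235). At day 14 Slc6a9 had 5.97, 8.003 and 2.02 CPM in the PNX libraries, against 5.71 and 8.42 CPM in the sham libraries, again with overlap. The noradrenaline carrier Slc6a2, the creatine carrier Slc6a8 and Slc6a14, a carrier of neutral and cationic amino acids, averaged 22.2, 26.6 and 11.9 CPM over the 4 groups and overlapped at both days. Slc6a12 (betaine and GABA) had 0.373, 0.314 and 0.225 CPM in the PNX libraries, against 4.70 and 0.366 CPM in the sham libraries at day 14, and Slc6a18 (B0AT3, a kidney carrier) had 1.87, 0.471 and 0.899 CPM in the PNX libraries, against 11.4 and 0.732 CPM in the sham libraries. In both the single high value was that of sham day 14 replicate 1, which 12 of the 53 genes shared as their highest library. Their log2 fold changes at day 14 were -2.89 ± 1.33 and -2.44 ± 1.13, neither called. At day 7 Slc6a12 had 0.680, 2.22 and 1.16 CPM in the PNX libraries, against 1.55, 0.430 and 0.290 CPM in the sham libraries, with overlap. Slc6a18 had 3.74, 3.32 and 0.385 CPM in the PNX libraries, against 0.984, 1.07 and 0.580 CPM in the sham libraries at day 7, with overlap. Slc6a17, of a synaptic vesicle carrier, had 5.27, 8.31 and 2.44 CPM in the PNX libraries, against 2.81, 3.44 and 1.30 CPM in the sham libraries at day 7, and 3.17, 3.45 and 3.82 CPM in the PNX libraries, against 8.06 and 0.854 CPM in the sham libraries at day 14, also with overlap. Slc7a4 averaged 8.39 CPM over the 4 groups, and Slc6a5, Slc6a7, Slc6a11, Slc6a15, Slc7a14 and Slc38a3 averaged 0.582 to 4.22 CPM; all overlapped at both days.

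Among the cationic carriers, Slc7a1 (CAT1, arginine and lysine) had 13.4, 11.1 and 25.8 CPM in the PNX libraries, against 8.73 and 7.93 CPM in the sham libraries at day 14, apart (log2 fold change 1.01 ± 0.47, edgeR adjusted p = 0.711). At day 7 Slc7a1 had 13.6, 16.6 and 10.4 CPM in the PNX libraries, against 7.31, 12.9 and 12.03 CPM in the sham libraries, with overlap. Slc7a2 (CAT2) averaged 26.0 ± 1.98 CPM after PNX (SD, n = 3) and 15.9 ± 4.93 CPM after sham (SD, n = 2) at day 14, also apart (log2 fold change 0.69 ± 0.36, edgeR adjusted p = 0.747). With Slc6a4, Slc7a7, Slc38a1, Slc38a4, Slc38a6 and Slc38a9, these made 8 of 47 genes (17.0%) whose PNX values lay above both sham values at day 14, where 9.57% of all genes did; 2 (4.26%), Slc7a10 and Slc7a11, lay below, where 8.28% did. At day 7 the counts were 2 above (4.26%), where 9.95% of all genes were, and 8 below (17.0%), where 9.57% were. The 3 Slc43 genes all had a fitted value below 0 at day 7, where 48.3% of all genes did: Slc43a3 averaged 705 ± 235 CPM after PNX and 1223 ± 408 CPM after sham (SD, n = 3 each; log2 fold change -0.79 ± 0.50, edgeR adjusted p = 0.574), Slc43a1 (LAT3) -0.76 ± 0.45 on the log2 scale and Slc43a2 (LAT4) -0.20 ± 0.38. At day 14 the sham pair of Slc43a3 stood at 302 and 1547 CPM, on either side of the PNX libraries at 1308, 741 and 759.7 CPM.

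For the change between days within a surgery, none of the 47 genes was called. After PNX, Slc38a9 was higher at day 14 than at day 7 and Slc36a1 lower at an unadjusted p under 0.05, where 3.72% of all genes were higher and 3.13% lower, and no gene of the whole set was called (0.0%). After sham, Slc6a18 was higher and Slc1a5, Slc6a9, Slc38a7 and Slc38a10 lower at that level, where 6.32% of all genes were higher and 7.94% lower, with 0.0187% called. For the surgery effect at day 14 minus that at day 7, Slc1a5, Slc38a9 and Slc38a10 were above 0 and Slc6a18 below 0 at that level, where 4.16% and 4.6% of all genes were, and again no gene was called (0.0%).

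Genes that use or sense amino acids were counted in 9 lists, and none of their members was called at day 7, at day 14 or over both days. At an unadjusted p under 0.05, 4.66% of all genes were higher and 8.07% lower at day 7, and 3.19% were higher and 3.63% lower at day 14, and each list's count is to be read beside these shares. Of 17 tested genes of the ATF4 response 1 was higher (Asns) and 2 lower (Ppp1r15a and Sesn2) at that level at day 7. The lists share some genes, so their counts are not separate. Asns is counted again in the glutamine list and Sesn2 in the mTORC1 list. Ppp1r15a, a phosphatase subunit of that response, averaged 351 ± 33.6 CPM after PNX and 1036 ± 147 CPM after sham at day 7 (SD, n = 3 each; log2 fold change -1.56 ± 0.41, edgeR adjusted p = 0.11). Atf4 itself averaged 67.7 ± 14.3 CPM after PNX (n = 3) and 193 ± 102 CPM after sham (n = 2) at day 14 (log2 fold change -1.51 ± 0.47, edgeR adjusted p = 0.44). It was not lower at day 7, with 110 ± 49.0 CPM after PNX and 99.7 ± 54.9 CPM after sham (SD, n = 3 each). In the list of mTORC1 sensing, 1 of 25 genes was higher and 3 lower at that level at day 7, where 4.66% and 8.07% of all genes were; Flcn, a partner of the lysosomal sensor, averaged 18.7 ± 2.34 CPM after PNX and 54.5 ± 16.8 CPM after sham (SD, n = 3 each; log2 fold change -1.54 ± 0.36, edgeR adjusted p = 0.0912).

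At the same level, 1 of 14 genes of proline use and collagen hydroxylation was higher and 1 lower at each day. Plod2, a lysyl hydroxylase of collagen, averaged 125 ± 24.9 CPM after PNX and 63.3 ± 5.77 CPM after sham at day 7 (SD, n = 3 each; log2 fold change 0.98 ± 0.30, edgeR adjusted p = 0.153), and Prodh, which breaks down proline, averaged 4.87 ± 0.716 CPM after PNX and 12.3 ± 4.04 CPM after sham (log2 fold change -1.33 ± 0.46, edgeR adjusted p = 0.212). Of 11 genes of serine, glycine and one-carbon use 2 were higher and 2 lower at day 7, among them Psat1 of serine synthesis at 1.15 ± 0.53 and Mthfd1 of folate use at -0.81 ± 0.35 on the log2 scale. In glutathione and cystine use 1 of 13 was higher at day 7, Gsr, glutathione reductase, at 1.06 ± 0.33 (edgeR adjusted p = 0.163). In glutamine and glutamate use 1 of 13 was higher, Asns, asparagine synthetase, at 0.94 ± 0.44 (edgeR adjusted p = 0.383). In branched-chain and other catabolism 2 of 13 were higher at day 7, Odc1 and Bcat1, and Bcat1, which transaminates leucine, averaged 18.4 ± 6.11 CPM after PNX and 6.18 ± 1.3 CPM after sham at day 7 (SD, n = 3 each). At day 14 Bcat1 averaged 3.37 ± 2.91 CPM after PNX (n = 3) and 10.5 ± 1.76 CPM after sham (n = 2), the other way round. Of 20 cytosolic aminoacyl-tRNA synthetases 1 was lower at each day. Of 16 amino acid carriers of other families 5 were lower and none higher at day 7, where 8.07% and 4.66% of all genes were, the smallest p being that of Slc16a10 (TAT1, aromatic amino acids), at -1.11 ± 0.37 (edgeR adjusted p = 0.2).

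The median log2 fold change of these lists at day 7, beside 0.03 for all genes, was -0.58 for the ATF4 response, 0.35 for serine, glycine and one-carbon use, -0.06 for proline and collagen hydroxylation, -0.37 for glutamine and glutamate use, 0.18 for glutathione and cystine use, -0.12 for branched-chain and other catabolism, -0.30 for mTORC1 sensing, -0.09 for the synthetases and -0.48 for carriers of other families. At day 14, beside -0.07 for all genes, the medians in the same order of lists were -0.35, 0.15, 0.06, 0.09, -0.003, -0.20, 0.11, -0.04 and -0.39. At an unadjusted p under 0.05 at day 14, 3 genes of the ATF4 response, 1 of glutathione and cystine use and 2 of branched-chain and other catabolism were lower, and no gene of those 3 lists was higher. The lists of serine, of glutamine, of mTORC1 sensing and of carriers of other families had no gene at that level at day 14.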

How the data were processed

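RNA was extracted with the RNeasy Micro kit and libraries were made with the NEBNext single cell/low input kit, per the labels. The deposited values are whole read counts per gene symbol; per the submitters' processing notes the authors used mm10 and bcl2fastq 2.20.0.422. How reads were aligned, counted, annotated and assigned to strands is not given in the sources used here. All columns were mapped to samples by title.

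The fit used edgeR 4.0.16 under R 4.3.3 (TMM factors, filterByExpr by group, robust quasi-likelihood dispersion, 4 group means, 7 residual degrees of freedom), which removed 8400 genes and tested 16011. SE is the absolute log2 fold change divided by the square root of F. Other settings used DESeq2 1.42.0, limma 3.58.1, other scalings, filters and left-out libraries, a background covariate, and a GC offset chosen after seeing the data. Steps were tested on simulated data. Total counts of 2539628 to 9008592 limit genes of few CPM.

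The values of 1 of the 53 genes are not reported here. The genes, gene lists and tests were chosen with earlier results of these data known. Values in every library are given for called genes, for the 4 genes of smallest p in each direction at each day, for 2 genes of smallest p in each other comparison, for Slc7a10, Slc1a5, Slc3a2, Slc7a5, Slc7a8 and Slc7a11, and, chosen after their values were seen, for Slc1a3, Slc6a6, Slc6a9 and Slc38a4. Locations and exon lengths are from GENCODE M21 (all 59 genes matched) and promoters from RefSeq. Levels of marker genes used as a check of the sort are shares of total counts.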

Additional observations from a re-analysis of the deposited data

How the results depend on the processing

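Slc7a10 was called over both days under all 21 settings. The count of transporter genes called moved elsewhere. At day 7, where edgeR called 0, DESeq2 called 2, limma voom 4 and a fit with no filter on low counts 2; leaving out a library gave 0 to 4, with 4 when sham day 7 replicate 1 was dropped and 2 when either sham library of day 14 was. At day 14, where edgeR called 0, DESeq2, the background covariate and a fit of only the groups compared called 1 each, Slc7a10. Over both days, against 1 by edgeR, DESeq2 called 4 (Slc1a5, Slc36a2 and Slc7a10 lower, Slc6a4 higher), no filter 2 and the fit without the 3 libraries of highest background 3; leaving out a library gave 1 to 5, with 2 when sham day 7 replicate 1 was dropped and 5 when sham day 14 replicate 1 was (Slc1a3, Slc1a5, Slc36a2, Slc6a6 and Slc7a10, all lower). For the difference between days leaving out a library gave 0 to 1, Slc1a5 without sham day 14 replicate 2. For day 14 against day 7 after sham DESeq2 called 2 and no filter 2, and leaving out a library gave 0 to 6, with 6 without sham day 14 replicate 2. After PNX the count was 0 under every setting. Each fit without 1 sham library of day 14 leaves 1 library in that group, which is assumed to vary like the other groups; without replicate 2 that is replicate 1, the shallowest library with the highest background. The causes were not tested.

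Of 719 values of single genes under other settings, 670 kept direction and side of the threshold, 30 became called and 19 changed sign. The sign of Slc7a8 at day 7 changed with limma voom (-0.377), no filter (-0.01) and the omission of the 3 libraries of highest background (-0.137), and leaving out a library gave -0.678 to 1.333. At day 7 leaving out a library gave -0.009 to 0.264 for Slc3a2. At day 14 it gave -0.28 to 1.768 for Slc7a8, -1.672 to 0.505 for Slc36a2, -3.251 to 0.527 for Slc6a18, -0.827 to 0.477 for Slc1a5, -0.269 to 0.798 for Slc3a2 and -0.595 to 0.316 for Slc7a5. With the 3 libraries of highest background left out, day 14 values were 0.56 for Slc6a18, -0.231 for Slc3a2 and 0.355 for Slc7a5. Total counts gave -0.029 for Slc3a2, and limma voom 0.015 and the background covariate 0.019 for Slc7a5, at day 14. The same-numbered PNX and sham libraries correlated at -0.116, 0.532 and 0.339 at day 7 and 0.0995 and 0.183 at day 14. PNX day 7 replicate 1 correlated best with sham replicate 2 (0.207). The numbers were not taken as pairs, though these correlations do not decide the matter. At day 14 the 2 sham libraries deviate from their mean as mirror images. PNX replicate 1 there gave 0.0995 with sham replicate 1 and -0.0995 with sham replicate 2. With a replicate block the fit called 0 at each day and 1 over both days, as without it. Without TMM factors the all-gene median shifted on the log2 scale by 0.182 at day 7 and -0.191 at day 14.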
